A study of Mus musculus with 6 samples.

Results

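The trefoil factors Tff1 and Tff2 and the gastrokines Gkn1, Gkn2 and Gkn3, small secreted proteins of the gastric mucosa, were taken from the table of gene expression by their symbols. All 5 were found among its 23550 genes, and all 5 passed the filter on low values described with the test. RNA from mouse stomach was sequenced in 6 libraries: 3 after gavage with normal saline (replicates 1, 2 and 4) and 3 after gavage with Riclin, a bacterial polysaccharide of the succinoglycan type, at 20 mg/kg (replicates 2, 3 and 4). Values are always given in that order. Gavage lasted 14 days in an experiment of 20 mice, and the study asked how Riclin acts on the defence barrier of the gastric mucosa. The labels of the saline libraries carry the same 20 mg/kg. The sources used here do not give the strain, the age or the region of stomach sampled, nor whether the mice behind these libraries received the ethanol of the study's injury model. Nothing in the labels ties a library to a separate mouse, so p-values measure the spread between libraries, which may be technical.

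Trefoil factors are compact peptides held together by disulphide bonds that are secreted with mucins and help the surface epithelium to close small wounds. Tff1 comes from the surface (pit) mucous cells together with the mucin Muc5ac, Tff2 from mucous neck cells and antral glands together with Muc6, and the third peptide of the family, Tff3, mainly from goblet cells of the intestine. Gastrokines carry a BRICHOS domain. Gkn1 and Gkn2 are products of surface mucous cells, Gkn2 can form a disulphide-linked dimer with Tff1, and Gkn3 in the mouse is made by mucous neck and gland cells.

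The genes form a pair of compact clusters. On GRCm38, the assembly that the build name mm10 stands for, the protein-coding genes Tff3, Tff2 and Tff1 lie on the minus strand of chromosome 17, at 31125306 to 31129646, 31141049 to 31144282 and 31161395 to 31165277. Gkn1 (minus strand, 87345650 to 87350942), Gkn2 (plus strand, 87373357 to 87379497) and Gkn3 (minus strand, 87383256 to 87388935) lie on chromosome 6. The gastrokine cluster spans 43.3 kb and the trefoil cluster 39.97 kb, and neither holds another protein-coding gene. The nearest protein-coding genes outside stood far lower than the members: Antxr1 at 6.97 to 9.97 FPKM (fragments per kilobase of gene, scaled to the depth of the library) and Bmp10 at 0 to 0.0194 beside the gastrokines, and Abcg1 at 0.882 to 1.37 and Tmprss3 at 0.108 to 0.891 beside the trefoil genes.

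Promoter sequences were found for 3 of the 5 members, Gkn1, Gkn2 and Gkn3. They are shown because Gkn3 differed from its neighbours in its pattern over the 6 libraries, a difference that rests on saline replicate 4. Each is the 250 bases before the RefSeq transcript start on GRCm38.p6, written 5′ to 3′ on the gene's own strand: chr6:87350916-87351165 (minus) for Gkn1, chr6:87373115-87373364 (plus) for Gkn2 and chr6:87388936-87389185 (minus) for Gkn3. Capitals mark GATAAG or its reverse complement CTTATC, 1 form of the core that GATA transcription factors bind. Other forms of that core were not searched for and are not marked.
Gkn1: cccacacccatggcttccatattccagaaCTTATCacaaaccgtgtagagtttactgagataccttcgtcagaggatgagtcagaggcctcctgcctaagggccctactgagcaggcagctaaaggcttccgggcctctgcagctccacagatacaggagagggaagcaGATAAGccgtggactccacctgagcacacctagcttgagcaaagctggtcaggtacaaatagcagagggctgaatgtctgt
Gkn2: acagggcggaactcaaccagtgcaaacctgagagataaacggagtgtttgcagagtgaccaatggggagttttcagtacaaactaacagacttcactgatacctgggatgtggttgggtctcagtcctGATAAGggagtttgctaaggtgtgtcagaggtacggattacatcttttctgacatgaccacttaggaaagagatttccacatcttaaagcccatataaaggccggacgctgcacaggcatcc
Gkn3: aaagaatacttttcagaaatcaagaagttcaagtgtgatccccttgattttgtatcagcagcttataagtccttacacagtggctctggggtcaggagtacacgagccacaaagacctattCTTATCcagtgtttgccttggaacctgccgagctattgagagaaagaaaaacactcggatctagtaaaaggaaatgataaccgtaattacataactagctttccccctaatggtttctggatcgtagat
GATAAG was present in all 3 windows. It starts 221 and 81 bases before the transcript start in Gkn1, 122 bases before it in Gkn2 and 129 bases before it in Gkn3, counting from the match's 5′ end on the strand shown. Among windows of the same length before 27025 genes, 6.60% held it, and among those of the 9388 tested genes that had a window, 4.51%. The motif was chosen after these sequences had been seen, and a match is a description of letters, not a binding site. Of the other motifs searched on both strands, TATAAA had 1 match, in Gkn2 (12.97% of all windows), TGTTTAC had none in the 3 windows (3.09% of all windows), CANNTG had 1 match each in Gkn1 and Gkn3 (66.0%), and CACCC had 1 match in Gkn1 (51.3%). No GATAAG match overlapped a match of these motifs. The GATA factors of the stomach were measured at 49.7 to 65.9 FPKM for Gata4, 13.7 to 17.3 for Gata5 and 18.8 to 26.7 for Gata6.

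In both groups these genes were among the most abundant transcripts of the stomach. Tff1 ranked between 1 and 4 of 23550 genes by FPKM in every library, Gkn2 between 3 and 5, Gkn1 between 5 and 9, Tff2 between 10 and 35, and Gkn3 between 34 and 172. The order Tff1, Gkn2, Gkn1, Tff2, Gkn3 held in 6 of 6 libraries. Tff1 stood 1.12 to 1.24 times above Gkn2 within a library and Gkn2 stood 1.62 to 1.83 times above Gkn1, although the ranges over libraries overlapped for both pairs. Gkn1 and Tff2 did not overlap (lowest Gkn1 12812, highest Tff2 11391 FPKM), while the lowest Tff2 value, 1885 FPKM, lay just under the highest Gkn3 value, 1968 FPKM. Tff3 was low, at 0.469 to 3.20 FPKM in 5 libraries and 29.8 in saline replicate 4.

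Together the 5 genes took 8.16, 6.40 and 5.34% of all reads under saline and 5.82, 6.43 and 4.51% under Riclin. The groups overlapped, with saline replicate 1 highest and Riclin replicate 4 lowest. Read numbers were recovered from the FPKM values, and library totals lay between 30884067 and 40050267 reads. At this depth counting error is small beside the spread: the 95% Wilson interval for saline replicate 1 was 8.15 to 8.17%, and it covers counting error only. The summed FPKM of the 5 genes was 89880 ± 17815 under saline and 75814 ± 14426 under Riclin (mean ± SD, 3 libraries each), a difference in mean log2 of -0.25 (exact two-sided permutation test, p = 0.5, where 3 against 3 can give no less than 0.1). Leaving out saline replicate 1 brought that difference to -0.095, leaving out Riclin replicate 4 to -0.086, and leaving out saline replicate 4 to -0.37. Pancreatic acinar transcripts, which come from a tissue next to the stomach, differed widely between libraries, from 0.0263% of reads in Riclin replicate 3 to 16.1% in saline replicate 2. With those reads left out of the totals the 5 genes took 8.497, 7.63 and 6.29% under saline and 6.54, 6.43 and 5.04% under Riclin, again overlapping. The summed FPKM, once acinar genes were removed and the values rescaled, no longer overlapped. Its log2 difference was then -0.35 (exact two-sided permutation test, p = 0.1, the smallest the design allows). With libraries scaled by the median of their gene ratios instead, the difference was -0.29 (exact two-sided permutation test, p = 0.3).

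**Figure D1:**
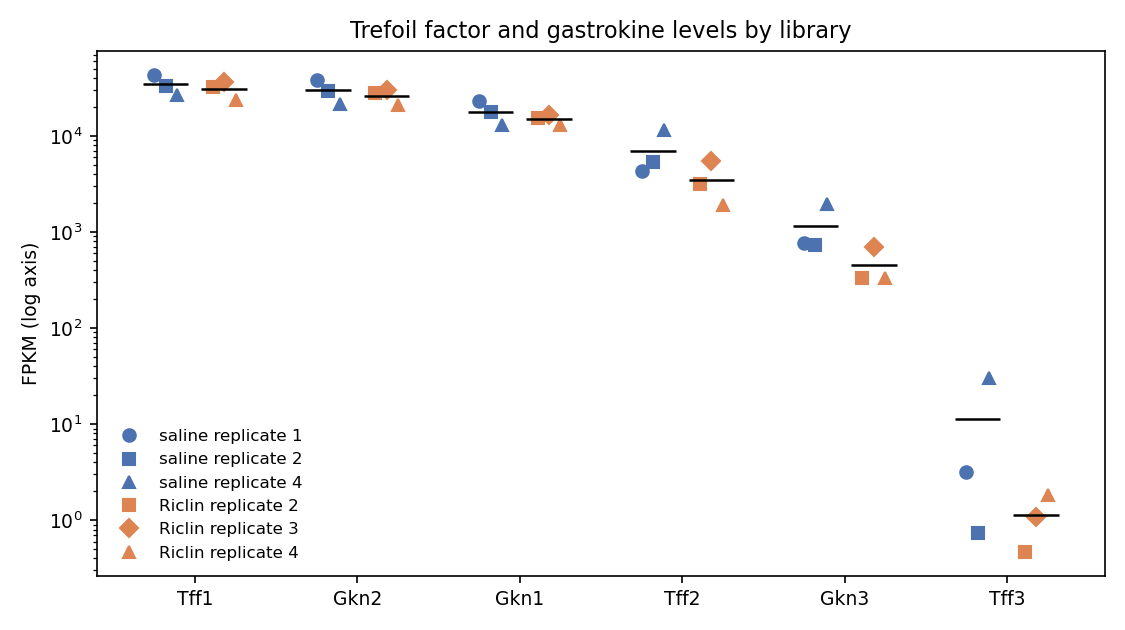
Points show FPKM on a log axis for each library (saline blue, Riclin orange, marker by replicate number) and bars the group means, for the 5 members and Tff3. Tff1, Gkn2 and Gkn1 lie between 12812 and 43359 FPKM in all libraries, and Tff2, Gkn3 and Tff3 are highest in saline replicate 4.

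The surface mucous cell products had group means within 1.19-fold of each other. Tff1 measured 43359, 32896 and 26603 FPKM under saline (34286 ± 8464, mean ± SD, 3 libraries) and 32497, 35998 and 23660 FPKM under Riclin (30718 ± 6358). Gkn2, its binding partner, measured 37972, 29407 and 21535 FPKM under saline (29638 ± 8221) and 27652, 29889 and 21119 under Riclin (26220 ± 4557). Gkn1, which protects the mucosa and supports its repair, measured 22923, 17701 and 12812 FPKM under saline (17812 ± 5057) and 15480, 16322 and 13033 under Riclin (14945 ± 1709). For these 3 genes saline replicate 1 was the highest of all libraries, and the replicates numbered 4 of each group were the lowest pair, so the groups overlapped. In bulk tissue, fewer cells of a type and less RNA per cell cannot be told apart.

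The products of the neck and gland cells had lower means in Riclin. Tff2 measured 4281, 5294 and 11391 FPKM under saline (6989 ± 3846, mean ± SD, 3 libraries) and 3139, 5414 and 1885 FPKM under Riclin (3479 ± 1789). Its Riclin mean was 0.498 times the saline mean, and Riclin replicate 3 lay above saline replicates 1 and 2, so the groups overlapped. Gkn3 measured 771, 726 and 1968 FPKM under saline (1155 ± 705) and 333, 690 and 332 FPKM under Riclin (452 ± 206), a Riclin mean of 0.391 times the saline mean. All 3 Riclin libraries lay below all 3 saline libraries in Gkn3, the nearest pair being 690 in Riclin replicate 3 and 726 in saline replicate 2. Saline replicate 4 stood 2.38 times above the mean of the other saline libraries in Tff2 and 2.63 times in Gkn3, but at 0.698, 0.631 and 0.639 times that mean in Tff1, Gkn1 and Gkn2.

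The groups were compared by limma with a variance trend on log2(FPKM + 1) over the 11738 genes with at least 1 FPKM in at least 3 libraries, with Benjamini-Hochberg adjustment over all of them. None of the 5 members passed an adjusted p of 0.05, and neither did any other gene (0% of those tested). At an unadjusted p under 0.05 there were 693 genes, 5.9% of those tested, and 1.83% were lower in Riclin. Gkn3 was the only member below that level, with a log2 fold change of -1.28 (SE 0.447, 95% interval -2.32 to -0.24, limma adjusted p = 0.791). It was also the only member of the 5 whose groups did not overlap with Riclin lower, a pattern that 3.02% of tested genes had. Tff2 had a log2 fold change of -1.003 (SE 0.509, 95% interval -2.19 to 0.18, limma adjusted p = 0.828). For Tff1, Gkn2 and Gkn1 the log2 fold changes were -0.15 (95% interval -1.28 to 0.98), -0.15 (-1.25 to 0.94) and -0.22 (-1.17 to 0.73), with limma adjusted p of 0.973, 0.971 and 0.945. These intervals reach well to both sides of 0, so likeness of the groups is not shown. With voom on the recovered reads, Tff2 as well as Gkn3 was at an unadjusted p under 0.05, as were 6.33% of tested genes, with limma adjusted p of 0.783 and 0.718. All 5 log2 fold changes were below 0, as were those of 38.7% of tested genes, and the members' median was -0.22 against 0.040 over all genes. Only 50 tested genes (0.426%) had a lower log2 fold change than Gkn3 and 72 (0.613%) a lower one than Tff2.

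The differences depended on single libraries. The log2 fold change of Gkn3 was -0.82 without saline replicate 4 and -0.64 without both libraries numbered 4, and that of Tff2 was -0.58, or -0.63 without Riclin replicate 4, and -0.21 without both. The unadjusted limma p of Gkn3 was 0.0514 without saline replicate 4, 0.0695 without Riclin replicate 2 and 0.0655 without Riclin replicate 4. It stayed under 0.05 with each other single library left out. Tff1 turned to 0.032 without saline replicate 1 and to 0.025 without Riclin replicate 4. Gkn2 turned to 0.044 without saline replicate 1, and came to -0.0058 without Riclin replicate 4, -0.37 without saline replicate 4 and -0.22 without both libraries numbered 4. Tff1 came to -0.32 without saline replicate 4 and -0.28 without Riclin replicate 3. Gkn1 came to -0.018 without saline replicate 1, -0.12 without Riclin replicate 4, -0.44 without saline replicate 4 and -0.34 without both libraries numbered 4.

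**Figure D2:**
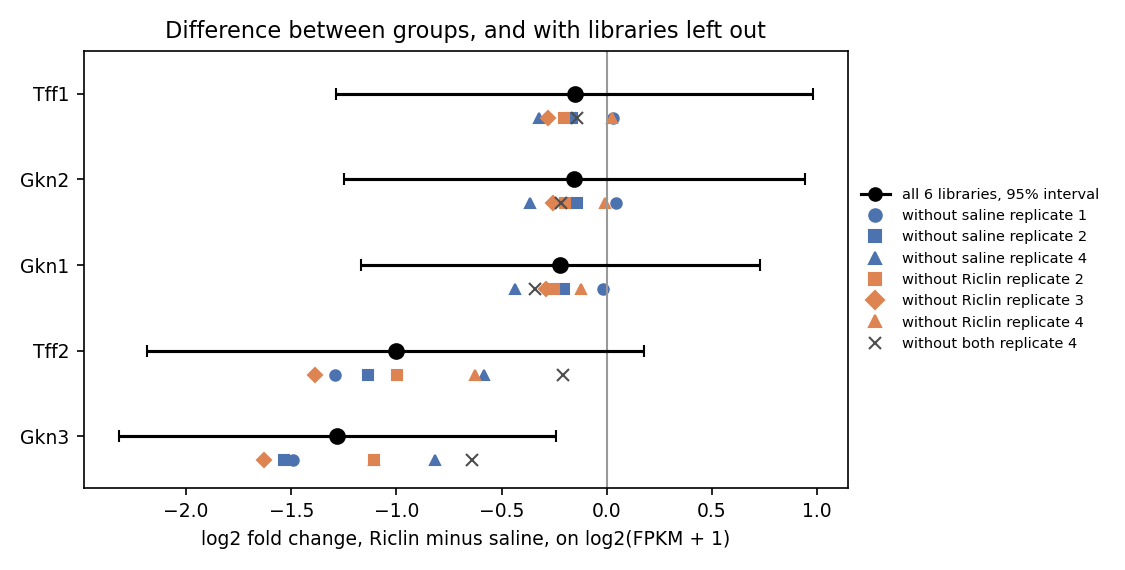
Black points give the log2 fold change, Riclin minus saline, with its 95% interval from limma. Smaller markers below each give the value with the named library, or both libraries numbered 4, left out. With no library left out, the interval of Gkn3, -2.32 to -0.24, is the only one that does not reach 0. Tff2 moves to -0.21 without both libraries numbered 4.

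Across the libraries the members fell into a pair of patterns, one of Tff1, Gkn1 and Gkn2 and one of Tff2 and Gkn3. Over the 6 libraries, Pearson's r on log2(FPKM + 1) was 0.98 for Tff1 and Gkn2 (exact permutation p = 0.00278, adjusted over 10 pairs 0.0278), with a Spearman's rho of 1 (exact permutation p = 0.00278, adjusted 0.0278). For Gkn1 and Gkn2 r was 0.98 (exact permutation p = 0.0111, adjusted 0.0556) and rho 0.89 (p = 0.0333, adjusted 0.111). For Tff1 and Gkn1 r was 0.93 (exact permutation p = 0.0194, adjusted 0.0648) and rho again 0.89. For Tff2 and Gkn3 r was 0.95 (exact permutation p = 0.0278, adjusted 0.0694) and rho 0.77 (p = 0.103, adjusted 0.257). Without the 2 libraries farthest from the median of the gene named before the other, r was 0.97 for Tff1 and Gkn2, 0.94 for Gkn1 and Gkn2, 0.85 for Tff1 and Gkn1 and 0.86 for Tff2 and Gkn3. With group means removed these 4 values were 0.98, 0.98, 0.93 and 0.92, so the likeness was also present within the groups.

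Across the patterns no such likeness was found over the 6 libraries. The 6 pairs that join Tff1, Gkn1 or Gkn2 with Tff2 or Gkn3 had r between -0.041 and 0.15 and rho between -0.086 and 0.37, with exact permutation p from 0.497 to 1 and an adjusted p of at least 0.823. Without the 2 libraries farthest from the median, r in these pairs ran from -0.75 to 0.81. Saline replicate 4 was highest in Tff2 and Gkn3 and low in the surface products, and without it the same 6 pairs had r between 0.65 and 0.79 over 5 libraries, so the separation of the patterns rests on that library. Gkn2 and Gkn3, neighbours in the genome, had an r of -0.041 over the 6 libraries.

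**Figure D3:**
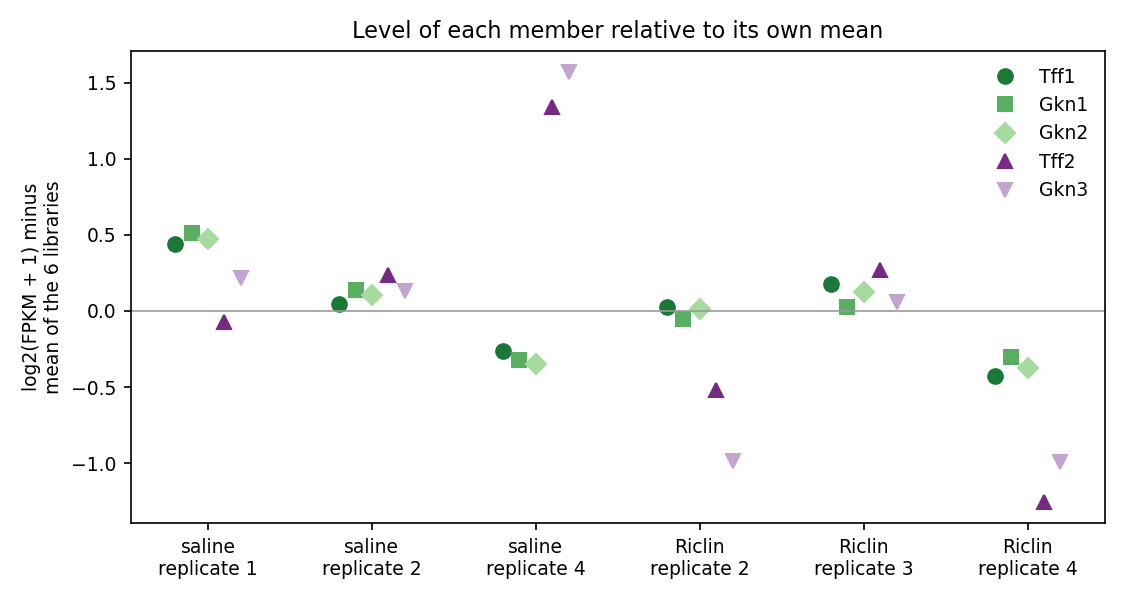
For each library the points give log2(FPKM + 1) of a member minus its mean over the 6 libraries. Tff1, Gkn1 and Gkn2 (green) stay close together in every library, while Tff2 and Gkn3 (purple) stand far above them in saline replicate 4, below them in Riclin replicates 2 and 4, and near them in saline replicate 2 and Riclin replicate 3.

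Among the 11338 named genes tested, those most like each member were found by r over the 6 libraries, as a description of likeness only. Gkn2 ranked 7 of these genes by likeness to Tff1, and Tff1 ranked 5 by likeness to Gkn2. By likeness to Gkn1, Gkn2 ranked 7 and Tff1 ranked 44. Gkn1 ranked 8 by likeness to Gkn2 and 84 by likeness to Tff1. Gkn3 ranked 22 by likeness to Tff2, and Tff2 ranked 23 by likeness to Gkn3. The 3 genes nearest to Tff1 were Vps33b, a protein of vesicle traffic (r = 0.995), Gse1 (0.990) and Psmg3, a chaperone of proteasome assembly (0.986). Vps33b was also among the nearest to Gkn2 (r = 0.985), after Gpatch11 (0.992) and Fahd2a (0.989). Nearest to Gkn1 were Ydjc (r = 0.989), Mgst3, a microsomal glutathione transferase (0.985), and Fibp (0.983). Mgst3 is itself abundant, at 897, 707 and 493 FPKM under saline and 571, 675 and 519 FPKM under Riclin. Tff2 was nearest to Prim1, a DNA primase subunit (r = 0.992), Nop58, a protein of small nucleolar particles (0.987), and the lipid flippase Atp10a (0.981). Gkn3 was nearest to Atp10a (r = 0.988), the short-chain fatty acid receptor Ffar2 (0.986) and C2cd4b (0.979). Ffar2 measured 2.30, 2.13 and 4.13 FPKM in saline and 1.47, 2.11 and 1.13 in Riclin. Ffar2 was picked for its high r with Gkn3, and it also orders these libraries as Gkn3 does (Spearman's rho 1). The lack of overlap between its groups is therefore no further result.

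Ratios within a library do not depend on how libraries are scaled. The Gkn2 to Gkn1 ratio was the steadiest of the 10 ratios formed, at 1.66, 1.66 and 1.68 under saline and 1.79, 1.83 and 1.62 under Riclin. Its coefficient of variation over the 6 libraries was 4.87%, against 22.7% for the FPKM of Gkn1 alone. Gkn1 to Tff1 lay between 0.453 and 0.551. The ratio of Tff2 to Tff1, neck product to surface product, was 0.0987, 0.161 and 0.428 in saline and 0.0966, 0.150 and 0.0797 in Riclin. That of Gkn3 to Gkn1 was 0.0336, 0.0410 and 0.154 in saline and 0.0215, 0.0422 and 0.0255 in Riclin. In both ratios saline replicate 4 was highest and the groups overlapped.

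Set against the mucin of the same cell, the surface products had group means close to each other. Tff1 was 85.6 ± 9.47 times Muc5ac under saline and 85.7 ± 13.3 times under Riclin (mean ± SD of the ratio of FPKM, 3 libraries each). Gkn2 was 73.7 ± 11.0 and 73.8 ± 13.8 times Muc5ac, and Gkn1 44.3 ± 6.79 and 42.7 ± 10.5 times. Tff2 to Muc6 was 128, 141 and 210 in saline and 134, 156 and 46.8 in Riclin, the lowest value being Riclin replicate 4. Gkn3 to Muc6 was 23.0, 19.3 and 36.4 in saline and 14.2, 19.9 and 8.25 in Riclin, where Riclin replicate 3 lay just above saline replicate 2. By exact two-sided permutation tests none of the 10 ratios passed the threshold (p from 0.2 to 1, adjusted over the 10 ratios from 0.75 to 1), in a design that can give no less than 0.1. The log2 differences were -0.85 for Tff2 to Tff1, -1.06 for Gkn3 to Gkn1, -0.93 for Gkn3 to Muc6, -0.65 for Tff2 to Muc6 and -0.28 for Gkn3 to Tff2. Single libraries moved these values. Without saline replicate 4 the difference was -0.26 for Tff2 to Tff1 and -0.38 for Gkn3 to Gkn1. Without Riclin replicate 4 it was -0.11 for Tff2 to Muc6, -0.59 for Gkn3 to Muc6 and -0.48 for Gkn3 to Tff2, which came to -0.11 without Riclin replicate 2. Without both libraries numbered 4 the difference was -0.065 for Tff2 to Tff1, -0.30 for Gkn3 to Gkn1, -0.33 for Gkn3 to Muc6 and 0.10 for Tff2 to Muc6. The differences of the surface products against Muc5ac, between -0.072 and -0.0039, turned sign without saline replicate 2 and without Riclin replicate 3.

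**Figure D4:**
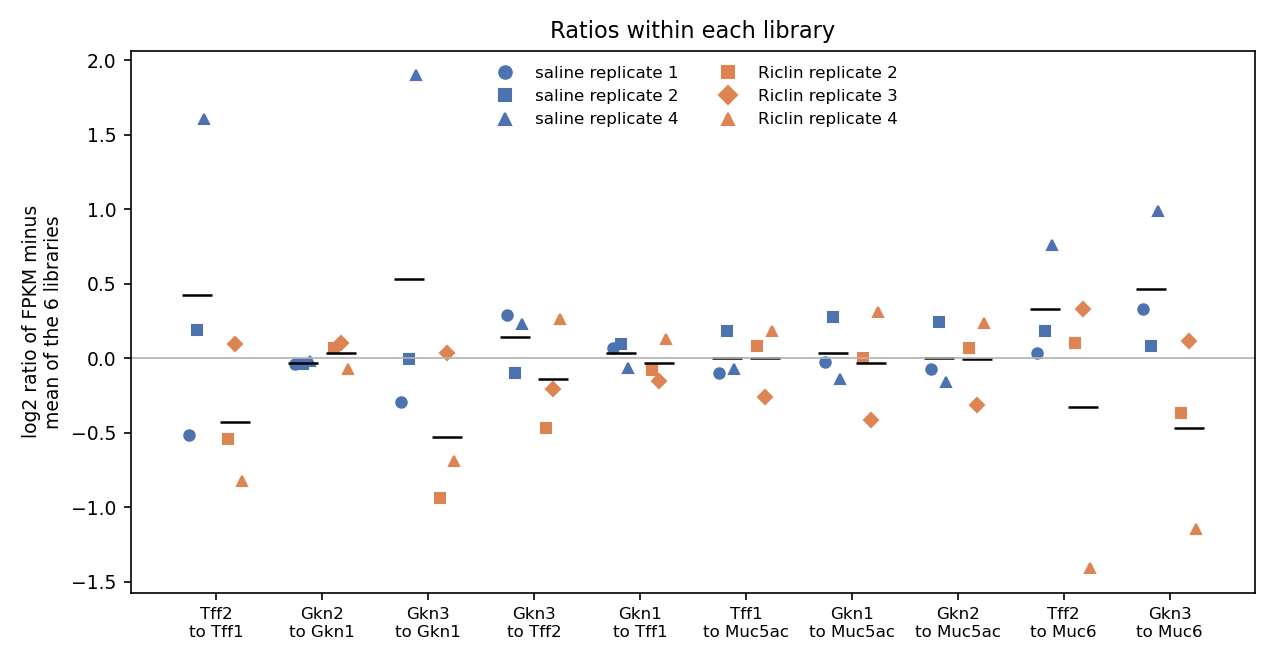
Each point is the log2 ratio of the FPKM of a pair of genes in a library, minus the mean of that ratio over the 6 libraries, and bars are group means. Gkn2 to Gkn1 is the tightest, saline replicate 4 is highest in the ratios of Tff2 or Gkn3 to Tff1, Gkn1 or Muc6, and Riclin replicate 4 is lowest in the ratios to Muc6.

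Some intestinal markers were highest in saline replicate 4, as Tff2 and Gkn3 were. The intestinal transcription factor Cdx1 and the sucrase gene Sis were at 0.962 and 0.892 FPKM in saline replicate 4 and at 0 in the other 5 libraries. In the same library the intestinal phosphatase Alpi was at 42.0 FPKM against 0.146 to 1.998 elsewhere, and Tff3 at 29.8 FPKM. Cdx2 was at 2.08 FPKM there against 0.0736 to 0.349 elsewhere, and Muc2 at 0.512 against 0.00378 to 0.0879. Fabp2 was at 54.3 FPKM against 2.59 to 24.6 elsewhere. Clca1 and Rbp2 had no such rise in that library. Clca1 measured 362, 303 and 365 FPKM in saline and 77.0, 115 and 118 in Riclin. Rbp2 measured 126, 79.0 and 132 FPKM in saline and 75.1, 75.1 and 47.8 in Riclin. The summed FPKM of the 11 intestinal genes listed was 1846 to 5167 in saline and 303 to 3399 in Riclin. It was lowest in Riclin replicate 3, where Tff2 and Gkn3 were the highest among the Riclin libraries. All 6 tested intestinal genes had log2 fold changes below 0, as did 38.7% of all tested genes. Of the 6, 4 were lower at an unadjusted limma p under 0.05, against 1.83% of all tested genes, and none passed the adjusted threshold. In 5 of 6 libraries most of that sum was Zg16, at 1232 to 4677 FPKM, which pancreatic acinar cells also make, and Riclin replicate 3 had 40.2 FPKM of it. The part of intestinal RNA in the levels of Tff2 and Gkn3 was not tested.

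Antral markers had lower means in Riclin. Gast, the gastrin gene of antral G cells, measured 676 to 1037 FPKM in saline and 420, 389 and 2.62 FPKM in Riclin replicates 2, 3 and 4. Pdx1, an antral transcription factor, measured 6.51 to 8.48 FPKM in saline and 3.85, 4.29 and 1.93 in Riclin, with no overlap (log2 fold change -0.98, limma adjusted p = 0.624). Nkx6-3, a further antral factor, had a log2 fold change of -1.24 (limma adjusted p = 0.791). Their summed level was 699 to 1068 FPKM in saline and 7.76 to 433 FPKM in Riclin. Riclin replicate 4, lowest in all 3, was also lowest in Tff2 and, with Riclin replicate 2, in Gkn3. Whether the sampled share of antrum has a part in the lower Tff2 and Gkn3 was not tested.

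**Figure D5:**
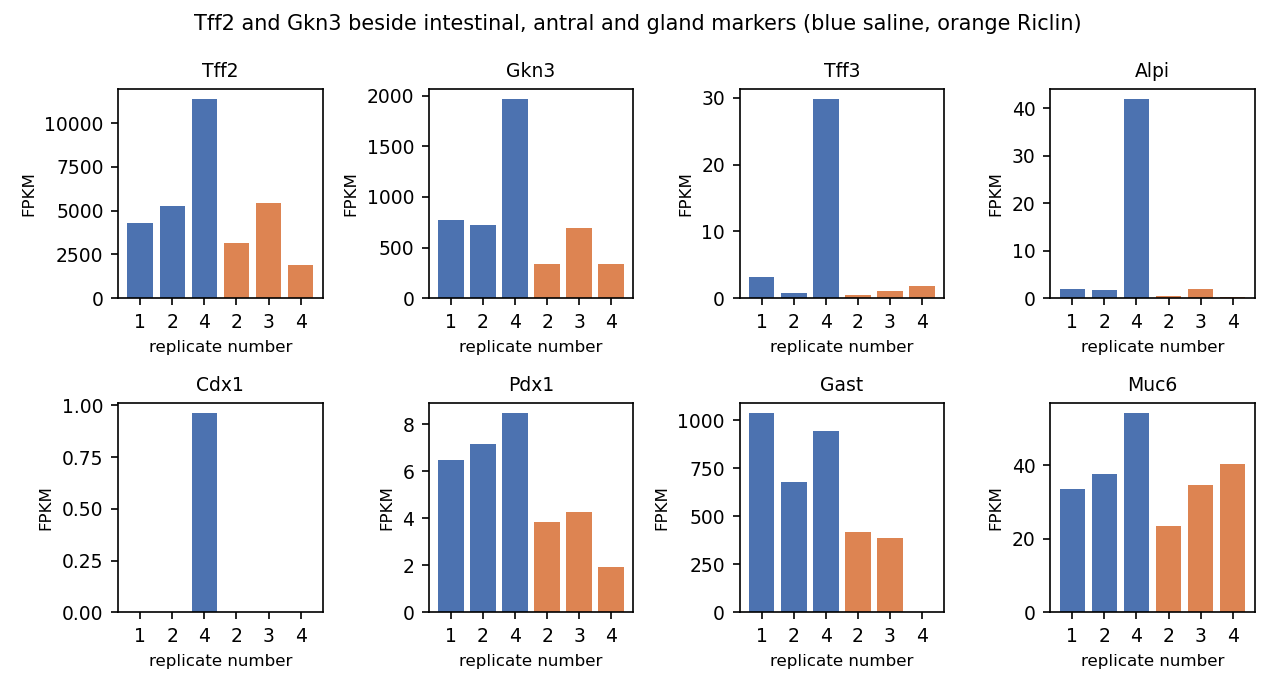
Bars give FPKM in each library (saline blue, Riclin orange) for Tff2 and Gkn3 beside Tff3 and the intestinal genes Alpi and Cdx1, the antral genes Pdx1 and Gast and the gland mucin Muc6. Cdx1 is above 0 in saline replicate 4 alone, and Gast is 2.62 FPKM in Riclin replicate 4.

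Other genes of the surface mucous cells also leaned slightly below 0. Of 12 listed, all tested, none passed the adjusted threshold, and the median log2 fold change was -0.15. Above 0 were 2 and below 0 were 10, beside 38.7% of all tested genes below 0. The abundant members were Psca (5568 ± 1744 FPKM under saline, 5999 ± 1616 under Riclin, mean ± SD, 3 libraries each), Mucl3 (1368 ± 367 and 1117 ± 346), the protease Ctse (1253 ± 286 and 1142 ± 72.6) and the annexin Anxa10 (692 ± 73.2 and 581 ± 88.2). Krt20, a keratin of mature surface cells named here after its values were seen, was the only one at an unadjusted p under 0.05 (log2 fold change -0.94, limma adjusted p = 0.806).

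Other genes of the neck and gland cells had log2 fold changes to both sides of 0. Of 6 listed, 3 had a log2 fold change above 0 and 3 below 0, with a median of -0.14 and none past the adjusted threshold. Muc6 had a log2 fold change of -0.34 (limma adjusted p = 0.864), A4gnt, which caps the glycans of gland mucin, 0.02 (0.988), Aqp5, a water channel, -0.33 (0.882) and Wfdc2 0.08 (0.989). Glipr1, the only one at an unadjusted p under 0.05, was higher in Riclin without overlap (log2 fold change 0.45, limma adjusted p = 0.682). Corpus genes pointed the other way: all 10 parietal and chief cell genes listed had log2 fold changes above 0, with a median of 0.41. Over all 11738 tested genes, 7195 were above 0. Of the 10, 4 were at an unadjusted p under 0.05 (4.07% of tested genes were higher at that level) and none passed the adjusted threshold. Pgc, the pepsinogen that was the most abundant of them, measured 45744 ± 15042 FPKM under saline and 66183 ± 11768 under Riclin (mean ± SD, 3 libraries each).

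The transcription factors listed for gastric mucous cells had log2 fold changes close to 0. Of 19 tested of 21, 11 had log2 fold changes above 0 and 8 below 0, with a median of 0.059 and none past the adjusted threshold. Elf3 was at 158 ± 18.6 FPKM under saline and 147 ± 12.5 under Riclin, Foxq1 61.8 ± 8.91 and 60.1 ± 16.4, Gata4 52.6 ± 4.69 and 61.8 ± 4.05, and Klf4 48.6 ± 7.85 and 48.1 ± 8.09 (mean ± SD, 3 libraries each). Gata6 alone was at an unadjusted p under 0.05 (log2 fold change 0.32, limma adjusted p = 0.791).

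Of 11 genes listed as binding partners and receptors, not all of them shown to bind trefoil peptides, 9 were tested. All 9 had log2 fold changes below 0 (38.7% of all tested genes), with a median of -0.11 and none past the adjusted threshold. The values ran from -2.88 to -0.0090, and Muc5ac, Muc6 and Fcgbp also stand in other lists. Cxcr4, a chemokine receptor proposed for Tff2, was at 1.37 to 2.89 FPKM in saline and 1.81 to 2.28 in Riclin. The mucus protein Fcgbp, which binds Tff3 and Tff1, was at 83.3 to 138 FPKM in saline and 38.5, 45.1 and 0.630 FPKM in Riclin, without overlap (log2 fold change -2.88, limma adjusted p = 0.806). Dmbt1, a scavenger protein that binds trefoil peptides, was lowest in Riclin replicate 3, at 31.8 FPKM against 177 to 540 in the others. Lingo2, a receptor proposed for Tff3, stayed at or below 0.0113 FPKM.

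Relatives with a BRICHOS domain had close group means: Itm2b was at 408 ± 31.9 FPKM under saline and 417 ± 38.7 under Riclin, and Itm2c at 48.9 ± 3.91 and 53.6 ± 9.35 (mean ± SD, 3 libraries each), and 3 of the 7 listed were tested. Of 6 genes for folding and secretion of mucus proteins, 5 had log2 fold changes above 0, as did 7195 of all 11738 tested genes. None passed the adjusted threshold. Agr2, the disulphide isomerase needed for mucin assembly, was the exception in direction, at 687 ± 72.7 FPKM under saline and 549 ± 100.2 under Riclin (mean ± SD, 3 libraries each, log2 fold change -0.33, limma adjusted p = 0.843). Squamous genes of the forestomach, a sign of how much squamous stomach a sample holds, summed to 215 to 574 FPKM in saline and 531 to 640 FPKM in Riclin, lowest in saline replicate 1, where Tff1, Gkn1 and Gkn2 were highest; their part in those levels was not tested.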

How the data were processed

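The authors deposited a table of FPKM values for 23550 gene symbols in 6 stomach libraries. The submitters' processing notes name Bowtie2, without a version, and the build mm10. The sources used here do not give the counting tool, the annotation or the strand setting. Groups come from the treatment labels and replicate numbers from the titles. Whole read numbers were recovered for all 23550 genes within 1e-04 reads, and they add up to 99.7 to 99.8% of the library totals that the values imply. Riclin was compared with saline by limma 3.58.1 (R 4.3.3) with a variance trend, no covariate and two-sided tests on log2(FPKM + 1), for genes with at least 1 FPKM in at least 3 libraries. Ratios, sums and correlations were tested by exact permutation (scipy 1.17.1), with Benjamini-Hochberg adjustment. The fit and the recovery were tested on simulated data.

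The members and gene lists were chosen with earlier results of these data known. The text names the members, Tff3, Muc5ac, Muc6, Gast and Pdx1, up to 4 genes per list with the highest mean FPKM, and the 3 genes most like each member. The cluster neighbours and Cdx1, Cdx2, Sis, Alpi, Muc2, Fabp2, Krt20, Glipr1, Cxcr4, Lingo2, Gata5 and Gata6 lie outside that rule. They were named after their values were seen. Positions are from GENCODE M21 (GRCm38), and promoters from RefSeq (GRCm38.p6). Figures were drawn with matplotlib 3.10.9.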

Additional observations from a re-analysis of the deposited data

How the results depend on the processing

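Under 16 alternatives to the limma comparison (another pseudocount, other filters, scalings, a robust prior, voom on recovered reads, the replicate block, each library left out, and, chosen after seeing the data, both libraries numbered 4 left out), none of the 5 members passed the adjusted threshold. The log2 fold change kept its sign in 16 of 16 for Tff2 (-1.67 to -0.21, limma adjusted p from 0.629 to 0.999), Gkn3 (-1.84 to -0.64, adjusted p from 0.471 to 0.999) and Gkn1 (-0.44 to -0.018). With each library left out in turn Tff1 ranged from -0.32 to 0.032 (0.025 without Riclin replicate 4) and Gkn2 from -0.37 to 0.044, and against Muc5ac the log2 difference ranged from -0.094 to 0.13 for Tff1, -0.24 to 0.12 for Gkn1 and -0.13 to 0.15 for Gkn2. The log2 difference of the members' summed FPKM ranged from -0.37 to -0.086 with single libraries left out, and Tff2 to Muc6 came to 0.10 without both libraries numbered 4. The number of genes past the adjusted threshold was 0, and 2 with the robust prior, while leaving out single libraries gave 0 to 1; the cause was not tested. The standard error of Tff1 was 0.488 in limma with a trend, 0.258 with the robust prior, 0.241 with voom and 2.95 with no filter; the cause was not tested. The titles share the numbers 2 and 4 between groups, and with the replicate block the log2 fold changes were -1.67 for Tff2, -1.84 for Gkn3, -0.093 for Tff1, -0.084 for Gkn1 and -0.058 for Gkn2, with 0 genes called. Libraries with the same number deviated from their group means with r = 0.22 (number 2) and 0.011 (number 4) over 11738 genes. Between saline and Riclin libraries with unlike numbers, r ran from -0.44 to 0.39. Nothing in the labels pairs the libraries. Depth does not limit these genes, since the least abundant, Gkn3, had 9850 or more reads in every library.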
